A study of Mus musculus with 12 samples.

Results

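The caspase genes and Apaf1 were examined in mouse hearts treated with doxorubicin (DOX) on Affymetrix expression arrays, which read each transcript with 1 or more probe sets (groups of short probes). The members were 8 genes, Casp1, Casp2, Casp4, Casp6, Casp8, Casp9, Casp12 and Apaf1, and every probe set whose entry in the platform's gene table was one of these symbols was taken. This gave 13 of the 45037 probe sets in the table, with at least 1 for each of the 8 genes and 0 that named a member beside another gene. The rule used no measured value. The list was drawn up with results of these arrays already known.

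Caspases are proteases that cut after aspartate residues and are made as inactive precursors, so that an mRNA level does not report protease activity. In the mitochondrial route to apoptosis, cytochrome c released into the cytosol binds Apaf1, which assembles into the apoptosome and activates the initiator caspase-9. In the death receptor route, ligands such as TRAIL or Fas ligand bring the adaptor FADD to the receptor, and FADD recruits caspase-8. Caspase-6 is an executioner that cuts lamin A, caspase-2 is activated on the PIDDosome through the adaptor CRADD (RAIDD), and caspase-1 is activated on inflammasomes through the adaptor ASC (the product of Pycard) and matures interleukin-1β and interleukin-18. Mouse Casp4 encodes the protein long called caspase-11, which senses bacterial lipopolysaccharide in the cytosol, and caspase-12 lies at the endoplasmic reticulum. DOX, an anthracycline used against cancer, damages the heart, and loss of cardiomyocytes by apoptosis is a known part of this damage.

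Total RNA of whole hearts was hybridised on 12 arrays, 3 in each of 4 groups. All mice were males of the strain C57BL/6J, aged 8 to 10 weeks per the labels. WT hearts and hearts labelled CHIP knockout were taken without treatment or at day 5 after DOX at 15 mg/kg, given once into the peritoneal cavity. The published methods describe the altered mice as carrying a cardiac-specific CHIP transgene, the untreated mice as given saline, and another dose and age, so the groups are named here as the labels have them and the altered arrays are called knockout-labelled. No source used here names the transgene's promoter or says whether hearts were pooled on an array, and the p-values measure the spread between arrays that the labels call biological replicates.

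Stub1, the gene of the ubiquitin ligase and cochaperone CHIP, went against the knockout label. On the probe set 1416580_a_at its intensity ranged from 1790 to 1857 in untreated WT, from 8762 to 9817 in untreated knockout-labelled, from 1930 to 1950 in WT DOX and from 5561 to 8723 in knockout-labelled DOX hearts. The log2 differences of 2.34 without treatment (limma adjusted p = 2.2e-04) and 1.89 after DOX (limma adjusted p = 9.9e-04) both ran upward on the knockout-labelled arrays, and the other Stub1 probe set, 1434412_x_at, had values of -0.04 and -0.08 with overlapping groups. Every genotype direction given here is therefore that of arrays whose label and Stub1 level disagree. The rise on 1416580_a_at has the direction of the CHIP transgene in the published methods, not that of a knockout. Array medians ran from 28.9 to 30.4 intensity units, and 3 of the 13 member probe sets had a mean below 32, as did 51.4% of all probe sets. The 10 cardiomyocyte markers summed to between 146376 and 176467 on every array, with the lowest mean (3270) for Ryr2, so the labelled tissue was borne out by its defining genes.

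The 250 bases upstream of the annotated start are shown for the 4 genes that passed a test in some comparison, because their levels were lower on different arrays: those of Casp9 on the knockout-labelled arrays, and those of Casp8, Casp1 and the brighter Casp6 probe set on the DOX arrays. They are the RefSeq windows of the mouse build GRCm38.p6, at chr4:141793362-141793611 for Casp9, chr1:58802252-58802501 for Casp8, chr3:129901165-129901414 for Casp6 and chr9:5298267-5298516 for Casp1, all on the plus strand. Each is written 5′ to 3′, and capitals mark the GC box GGGCGG or its reverse complement CCGCCC, the core of the element bound by Sp1 family factors.
Casp9: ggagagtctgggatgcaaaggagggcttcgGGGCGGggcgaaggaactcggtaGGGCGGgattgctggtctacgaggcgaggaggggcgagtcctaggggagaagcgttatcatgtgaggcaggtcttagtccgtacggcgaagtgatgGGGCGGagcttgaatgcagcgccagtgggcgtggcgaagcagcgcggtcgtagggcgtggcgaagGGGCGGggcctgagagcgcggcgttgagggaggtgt
Casp8: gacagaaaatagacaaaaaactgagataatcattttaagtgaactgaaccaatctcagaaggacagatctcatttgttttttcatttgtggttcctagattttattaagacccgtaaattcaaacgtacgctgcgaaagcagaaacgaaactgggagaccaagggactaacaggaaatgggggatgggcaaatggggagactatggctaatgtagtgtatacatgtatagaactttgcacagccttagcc
Casp6: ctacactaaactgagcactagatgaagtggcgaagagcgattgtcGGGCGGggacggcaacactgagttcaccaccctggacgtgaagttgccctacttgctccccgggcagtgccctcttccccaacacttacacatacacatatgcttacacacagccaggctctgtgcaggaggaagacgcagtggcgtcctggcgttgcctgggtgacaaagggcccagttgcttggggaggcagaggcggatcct
Casp1: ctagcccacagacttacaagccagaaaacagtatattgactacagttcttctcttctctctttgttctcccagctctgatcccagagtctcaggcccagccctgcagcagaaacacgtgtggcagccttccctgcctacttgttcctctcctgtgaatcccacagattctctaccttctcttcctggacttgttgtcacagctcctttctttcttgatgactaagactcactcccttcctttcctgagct

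The Casp9 window held 4 GC boxes and 25 CpG dinucleotides, with 66% of its bases G or C. The Casp8 window held 0 GC boxes at 39.6% G or C, the Casp6 window held 1 at 58.4%, and the Casp1 window held 0 at 49.2%. Of the 32851 upstream windows of this length in the table, 32.7% held at least 1 GC box on either strand and 4.09% held at least 4, with a median of 52.4% G or C. Among the other members, Apaf1 had 2 boxes, Casp2 had 1, and Casp4 and Casp12 had 0. Casp1, Casp4 and Casp12 follow one another on chromosome 9 in the annotation, and none of these 3 had a box. A match is a description of letters and not of binding.

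Tests came from limma, with the means of the 4 groups fitted jointly to log2(intensity + 32), p-values adjusted over all 45037 probe sets (Benjamini-Hochberg, two-sided) and a call at an adjusted p under 0.05. Differences are on this log2 scale, which understates changes of dim probe sets. DOX differences are treated over untreated, and genotype differences are knockout-labelled over WT. In WT hearts 0 of the 13 member probe sets passed for DOX, against 3.06% of all probe sets, and 3 had an unadjusted p under 0.05, as did 18.8% of all probe sets. In knockout-labelled hearts 1 passed, the Casp8 probe set, against 2.20% of all probe sets. For the genotype difference 1 passed without treatment and 1 after DOX, the same Casp9 probe set, against 1.81% and 0.941% of all probe sets. For the interaction, which asks whether the DOX response differed between genotypes, 0 of 13 members and 0% of all probe sets passed, while 1 member and 3914 of all probe sets had an unadjusted p under 0.05. With 13 probe sets 1 call is the smallest count above 0, so that nothing about the members as a group was read from these counts.

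Most members had a lower mean after DOX. In RNA from whole hearts, fewer cells of a type and less RNA per cell cannot be told apart. The mean after DOX was lower for 9 of 13 probe sets in WT hearts, with a median log2 difference of -0.05 against -0.01 over all probe sets. In knockout-labelled hearts it was lower for 11 of 13, with a median of -0.09 against 0.01. Without treatment 11 of 13 were higher in knockout-labelled hearts (median 0.08), and after DOX 7 of 13 were (median 0.03). None of the 13 rose in any of these comparisons by the test. The calls fell on different members: Casp8, Casp1 and the brighter of the 2 Casp6 probe sets had lower values after DOX in both genotypes, of which Casp8 in knockout-labelled hearts passed within a genotype, Casp9 differed by genotype on 1 of its 3 probe sets, and Casp2, Casp4, Casp12 and Apaf1 had no call. The DOX intervals of Casp4, Casp12 and the brighter Apaf1 probe set include falls as large as that of Casp1. They also include no change, so the lack of a call shows neither a different response nor a like one.

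**Figure D1:**
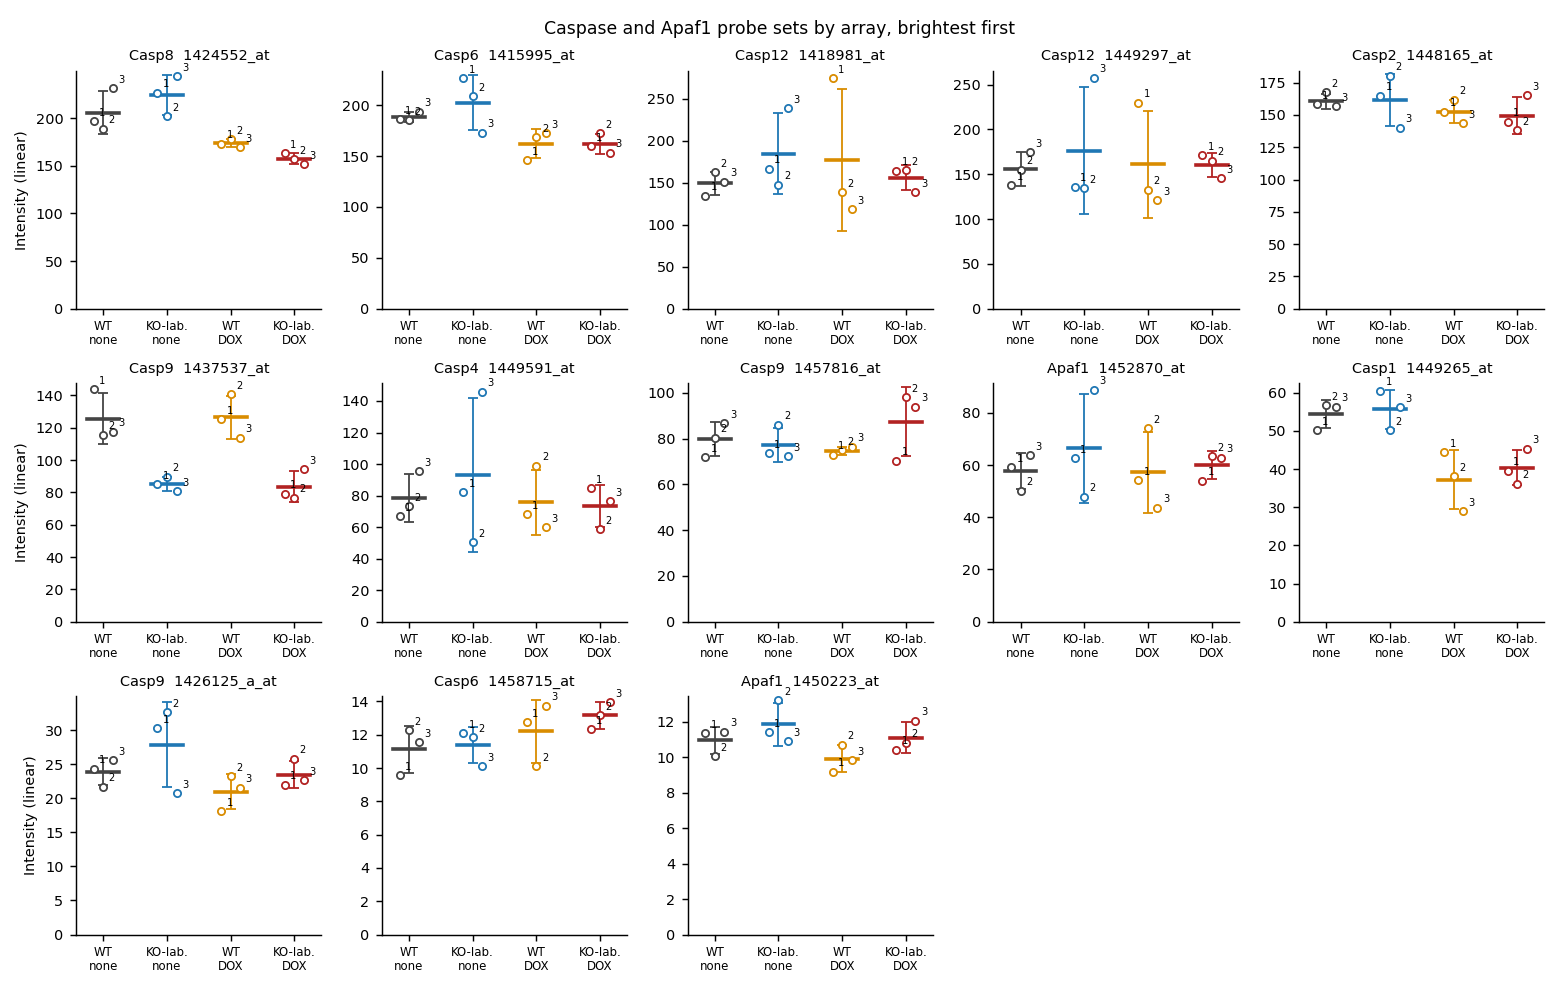
Linear intensity of the 13 member probe sets on each of the 12 arrays, ordered by mean. Circles are arrays with their replicate number, lines are group means and bars the SD (n = 3), and KO-lab. stands for knockout-labelled. The DOX circles of Casp8 1424552_at, Casp6 1415995_at and Casp1 1449265_at all lie below the untreated ones, and the knockout-labelled circles of Casp9 1437537_at all lie below the WT ones.

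The plot of intensity by array also shows how the probe sets differ in spread. The highest array stood 1.30-fold above the lowest for Casp2 and 1.61-fold for Casp8 1424552_at, but 2.91-fold for Casp4 and 2.31-fold for Casp12 1418981_at. The wide spread of Casp4 and Casp12 lay within groups rather than between them. Levels of different probe sets were not compared, since probes differ in brightness.

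Casp9, the initiator of the apoptosome, was lower on the knockout-labelled arrays on its brightest probe set. On 1437537_at the untreated WT arrays read 144, 116 and 118, and the untreated knockout-labelled arrays read 85.2, 89.8 and 80.6. After DOX the WT arrays read 125, 141 and 114, and the knockout-labelled arrays read 79.3, 76.8 and 94.4. All 6 knockout-labelled arrays lay below all 6 WT arrays, a pattern that 1.15% of all probe sets and 1 of the 13 members showed.

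Without treatment the WT mean was 126 ± 15.8 (SD, n = 3) and the knockout-labelled mean 85.2 ± 4.60 (SD, n = 3), a log2 difference of -0.42 (95% confidence interval -0.62 to -0.23, limma adjusted p = 0.042). After DOX they were 127 ± 13.4 (SD, n = 3) and 83.5 ± 9.55 (SD, n = 3), a log2 difference of -0.46 (95% confidence interval -0.65 to -0.27, limma adjusted p = 0.046). Both calls lay close to the threshold. The DOX differences of this probe set did not pass, with log2 values of 0.01 in WT (95% confidence interval -0.18 to 0.20) and -0.02 in knockout-labelled hearts (95% confidence interval -0.22 to 0.17).

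Averaged over both treatments, a comparison added after the data were seen, the genotype difference of Casp9 1437537_at was -0.44 on the log2 scale (95% confidence interval -0.58 to -0.30, limma adjusted p = 0.0055), where 5.28% of all probe sets and 1 of 13 members passed. An exact permutation test of the genotype labels within each treatment gave p = 0.005 two-sided, the smallest that its 400 relabellings allow, among 28 such tests of members. Since the knockout-labelled arrays lay below the WT arrays in each treatment, this p was fixed and restates that separation. The same holds for the permutation p-values of Casp8, Casp6 and Casp1 below, whose DOX arrays all lay below the untreated ones. The averaged call held without each of the 12 arrays in turn. Of the calls within a treatment, the one without treatment held in 3 of 12 such fits (those leaving out replicate 2 or 3 of WT DOX, or replicate 3 of knockout-labelled DOX) and had adjusted p-values between 0.052 and 0.13 in the other 9. The one after DOX held in 3 of 12 as well (without WT no treatment replicate 1, knockout-labelled no treatment replicate 3 or WT DOX replicate 3) and lay between 0.058 and 0.16 in the other 9.

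The other Casp9 probe sets did not show this difference. On 1457816_at the arrays read 71.9, 80.3 and 86.8 in untreated WT and 73.6, 86.0 and 72.2 in untreated knockout-labelled hearts, and 72.9, 74.8 and 76.4 in WT DOX and 70.2, 98.1 and 93.9 in knockout-labelled DOX hearts. Its genotype differences were -0.03 without treatment (95% confidence interval -0.23 to 0.17) and 0.15 after DOX (95% confidence interval -0.04 to 0.35), and the groups overlapped. The dim 1426125_a_at, with a mean of 24.1 below the median of every array, also overlapped between groups and is too dim to be set against the others.

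The 2 brighter Casp9 probe sets disagreed in their genotype difference. Taken array by array, the log2 value of 1437537_at minus that of 1457816_at differed between genotypes by -0.50, with p = 0.005 in the exact permutation test (two-sided, the smallest possible, on a pair chosen after its values were seen). Since 1437537_at alone already separated the genotypes, this p adds no separate support. Over the 12 arrays the 2 probe sets correlated at Pearson r = -0.28, given as a description. The gene table does not place the probe sets on the transcript, so that the Casp9 result is that of 1 probe set and not of the gene as a whole.

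Apaf1, the scaffold that caspase-9 binds, did not follow the Casp9 probe set. On 1452870_at the arrays read 59.2, 50.2 and 63.7 in untreated WT, 62.6, 47.8 and 88.9 in untreated knockout-labelled, 54.1, 74.1 and 43.7 in WT DOX, and 54.0, 63.3 and 62.8 in knockout-labelled DOX hearts. The 4 groups overlapped. Its genotype differences were 0.12 without treatment (95% confidence interval -0.23 to 0.46) and 0.06 after DOX (95% confidence interval -0.29 to 0.40), and its DOX differences were -0.02 and -0.08. These intervals leave out a genotype difference as low as that of Casp9 1437537_at. The second probe set, 1450223_at, read between 9.19 and 13.2 on all arrays and gave no call.

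Casp8, the initiator of the death receptor route, fell after DOX in knockout-labelled hearts. On its single probe set 1424552_at the untreated arrays read 227, 202 and 244 and the DOX arrays 163, 157 and 152 in knockout-labelled hearts. In WT hearts the untreated arrays read 197, 189 and 231 and the DOX arrays 173, 178 and 169. All 6 DOX arrays lay below all 6 untreated arrays.

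In knockout-labelled hearts the means were 224 ± 20.9 (SD, n = 3) without treatment and 157 ± 5.80 (SD, n = 3) after DOX, a log2 difference of -0.43 (95% confidence interval -0.60 to -0.27, limma adjusted p = 0.021). In WT hearts they were 206 ± 22.7 (SD, n = 3) and 173 ± 4.31 (SD, n = 3), a log2 difference of -0.21 (95% confidence interval -0.37 to -0.04, limma adjusted p = 0.16), which did not pass. The DOX responses of the genotypes were not shown to differ, since the interaction of -0.23 had an unadjusted limma p of 0.049 and an adjusted p of 0.57. The order of group means ran from untreated knockout-labelled through untreated WT and WT DOX to knockout-labelled DOX. Of these neighbours the 2 untreated groups overlapped, untreated WT and WT DOX did not overlap but did not pass either, and the 2 DOX groups did not overlap and differed by -0.12 (limma adjusted p = 0.48).

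Averaged over both genotypes, again a comparison added later, Casp8 was lower after DOX by a log2 difference of -0.32 (95% confidence interval -0.43 to -0.21, limma adjusted p = 0.0066, exact permutation p = 0.005, the smallest possible). In this averaged comparison 9.15% of all probe sets and 3 of 13 members passed, and a complete separation of the 6 DOX arrays below the 6 untreated arrays was seen in 1.70% of all probe sets and in 3 of 13 members. The averaged Casp8 call held without each array in turn. The call within knockout-labelled hearts was lost without untreated replicate 1 (adjusted p = 0.052) or DOX replicate 1 (0.070), 2 (0.066) or 3 (0.052) of that genotype, and held in the other 8 fits.

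Casp6, the executioner that cuts lamin A, had lower values after DOX on its brighter probe set, by a smaller amount. On 1415995_at the untreated arrays read 186, 185 and 194 in WT and 226, 209 and 173 in knockout-labelled hearts, and the DOX arrays read 146, 168 and 173 in WT and 159.7, 172 and 153 in knockout-labelled hearts. All 6 DOX arrays lay below the 6 untreated ones, the closest pair being WT DOX replicate 3 at 172.5 and untreated knockout-labelled replicate 3 at 172.9. The DOX difference was -0.18 in WT (95% confidence interval from -0.37 to just below 0, limma adjusted p = 0.27) and -0.27 in knockout-labelled hearts (95% confidence interval -0.45 to -0.09, limma adjusted p = 0.13).

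The averaged DOX difference of Casp6 was -0.23 (95% confidence interval -0.36 to -0.10, limma adjusted p = 0.040, exact permutation p = 0.005, the smallest possible), and the call within limma held in only 2 of 12 fits that left out 1 array. These were the fits without untreated knockout-labelled replicate 3 or WT DOX replicate 3, and the highest adjusted p of the others was 0.092, without untreated WT replicate 3. Without untreated knockout-labelled replicate 3 the difference within knockout-labelled hearts was -0.36 (limma adjusted p = 0.039). The second Casp6 probe set, 1458715_at, with a mean of 12.0, read between 9.57 and 14.0 and did not go the same way, with DOX differences of 0.04 and 0.06 that did not pass.

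Casp2, which the PIDDosome activates, did not separate the groups. On 1448165_at the arrays read 158, 167 and 157 in untreated WT, 165, 180.2 and 140.0 in untreated knockout-labelled, 152, 162 and 144 in WT DOX, and 145, 138 and 165 in knockout-labelled DOX hearts. All groups overlapped. The DOX differences were -0.06 (95% confidence interval -0.24 to 0.11) and -0.09 (95% confidence interval -0.27 to 0.08), and the genotype differences 0.00 (95% confidence interval -0.17 to 0.18) and -0.03 (95% confidence interval -0.20 to 0.15). These intervals leave out a change as large as that of Casp8 in knockout-labelled hearts.

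**Figure D2:**
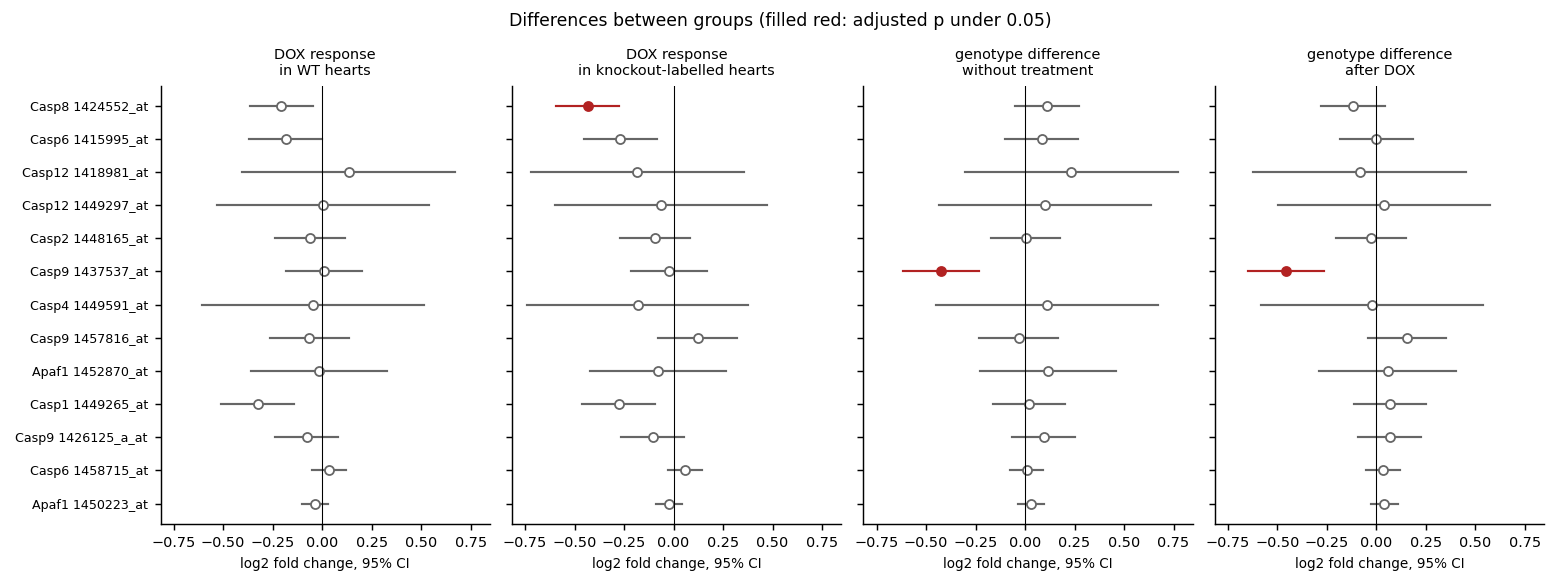
Log2 differences of the 13 member probe sets in the 4 comparisons, with 95% confidence intervals from limma (12 arrays in 1 fit, log2(intensity + 32)). Filled red points passed at an adjusted p under 0.05: Casp8 1424552_at for DOX in knockout-labelled hearts at -0.43, and Casp9 1437537_at for the genotype at -0.42 and -0.46. The widest intervals are those of Casp4 and Casp12.

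Casp1, the inflammasome protease, had lower values after DOX in both genotypes. On 1449265_at the untreated arrays read 50.2, 56.8 and 56.3 in WT and 60.5, 50.2 and 56.3 in knockout-labelled hearts, and the DOX arrays read 44.5, 38.1 and 29.0 in WT and 39.6, 36.2 and 45.3 in knockout-labelled hearts. All 6 DOX arrays lay below all 6 untreated arrays. The means in WT hearts were 54.4 ± 3.65 (SD, n = 3) and 37.2 ± 7.75 (SD, n = 3), a log2 difference of -0.33 (95% confidence interval -0.51 to -0.14, limma adjusted p = 0.063). In knockout-labelled hearts they were 55.7 ± 5.20 (SD, n = 3) and 40.4 ± 4.62 (SD, n = 3), a log2 difference of -0.28 (95% confidence interval -0.46 to -0.09, limma adjusted p = 0.12).

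Neither Casp1 difference passed within a genotype, while the average of both did, at -0.30 (95% confidence interval -0.43 to -0.17, limma adjusted p = 0.013, exact permutation p = 0.005, the smallest possible). This call held without each of the 12 arrays in turn. The interaction of 0.05 (95% confidence interval -0.21 to 0.31) and the genotype differences of 0.02 and 0.07 did not pass. Casp1 is dim, with a mean of 46.9, so the added value of 32 compresses these differences.

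The neighbours of Casp1 on chromosome 9 gave no call. Casp4, the cytosolic lipopolysaccharide sensor, read 66.9, 73.2 and 95.4 in untreated WT, 82.3, 50.2 and 146 in untreated knockout-labelled, 68.3, 99.0 and 59.8 in WT DOX, and 84.7, 58.8 and 76.3 in knockout-labelled DOX hearts on 1449591_at. The groups overlapped, and the highest values were those of untreated knockout-labelled replicate 3 and WT DOX replicate 2. Its DOX differences were -0.05 in WT (95% confidence interval -0.60 to 0.51) and -0.18 in knockout-labelled hearts (95% confidence interval -0.74 to 0.38), which are too wide to set against Casp1.

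Casp12, the caspase at the endoplasmic reticulum, had 2 probe sets that ran alike, with r = 0.91 over 12 arrays. On 1418981_at it read 135, 162 and 151 in untreated WT, 167, 148 and 239 in untreated knockout-labelled, 274, 138 and 119 in WT DOX, and 164, 165 and 139 in knockout-labelled DOX hearts. On 1449297_at the 2 highest arrays were again untreated knockout-labelled replicate 3 at 258 and WT DOX replicate 1 at 229.8, and all others read between 121 and 175. These 2 arrays stood apart from their own groups on both probe sets. None of the DOX or genotype differences passed, with values between -0.18 and 0.23 on the first and between -0.06 and 0.10 on the second.

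Most macrophage markers had a lower mean after DOX, as had Casp8, Casp1 and the brighter Casp6 probe set. The 11 macrophage markers, all matched and none near 0 (the lowest mean, 45.1, was that of Fcgr1), summed to between 5726 and 7339 in untreated WT, 5335 and 10807 in untreated knockout-labelled, 3456 and 4675 in WT DOX, and 5047 and 6088 in knockout-labelled DOX hearts. Of the 11, 9 were lower after DOX in WT and 10 in knockout-labelled hearts. Cd68 (log2 difference -0.95, limma adjusted p = 0.019) and Csf1r (-0.75, limma adjusted p = 0.016) fell in WT hearts. In knockout-labelled hearts 0 of 11 passed and 5 had an unadjusted p under 0.05, as did 16.2% of all probe sets. Averaged over both genotypes, the comparison in which Casp8, Casp6 and Casp1 passed, 5 of the 11 were lower by the test. There 8 had an unadjusted p under 0.05, and over all probe sets 9.15% passed and 23.1% had such a p. After DOX 9 of the 11 had a higher mean in knockout-labelled than in WT hearts, with a median log2 difference of 0.41, and 0 passed. Casp8 had its lowest group mean in knockout-labelled DOX hearts, but its difference of -0.12 from WT DOX did not pass (limma adjusted p = 0.48). The part of these markers in the caspase values was not tested.

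The summed neutrophil markers were highest on the arrays that were high for Casp4 and Apaf1. The 7 matched markers summed to 5278 on untreated knockout-labelled replicate 3 and 6899 on WT DOX replicate 2, and to between 362 and 2784 on the other 10 arrays. On that pair most of the sum came from S100a8, at 2337 and 3095, and S100a9, at 2399 and 2956. Ngp also had its 2 highest values on the pair, while Mmp8, Cxcr2, Csf3r and Camp did not. The same pair held the highest and the next highest values of both Casp4 and Apaf1 1452870_at, while Casp12 was high on the first of them and on WT DOX replicate 1, whose neutrophil sum was 991. Their part in the Casp4 and Apaf1 values was not tested. Without both arrays, chosen after their values were seen, Casp8 in knockout-labelled hearts had a difference of -0.38 (limma adjusted p = 0.057), Casp9 1437537_at had genotype differences of -0.40 (adjusted p = 0.11) and -0.39 (adjusted p = 0.12), and Casp6 in knockout-labelled hearts had a difference of -0.36 (adjusted p = 0.046). The averaged differences of Casp8 (-0.30, adjusted p = 0.019), Casp1 (-0.30, adjusted p = 0.041), Casp6 (-0.29, adjusted p = 0.014) and Casp9 (-0.40, adjusted p = 0.021) passed without them.

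**Figure D3:**
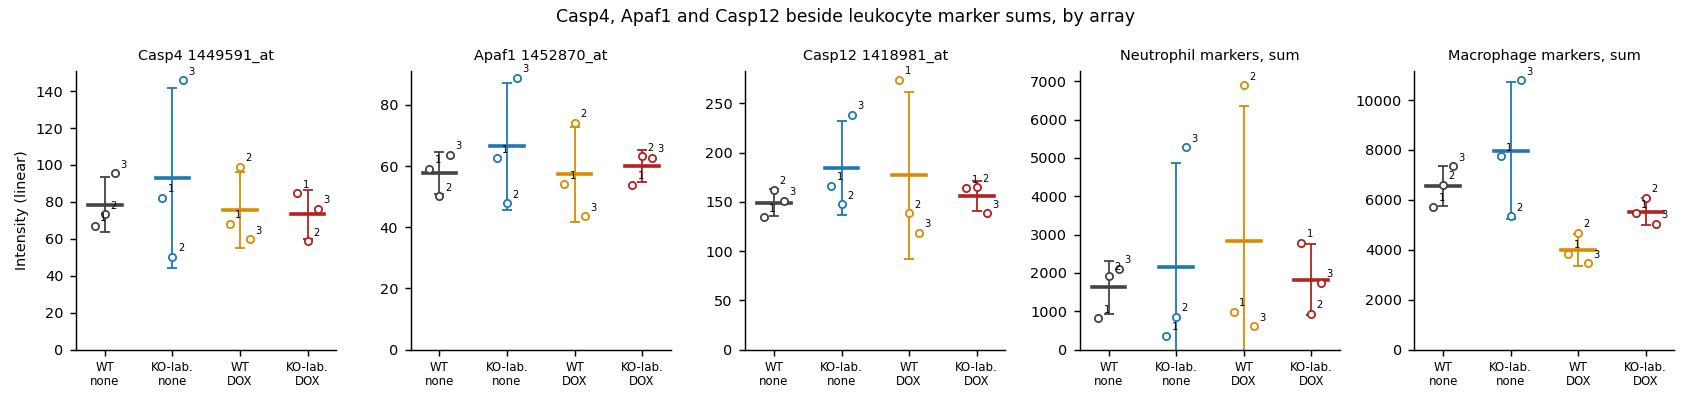
Linear intensity of Casp4 1449591_at, Apaf1 1452870_at and Casp12 1418981_at beside the summed intensity of the neutrophil and macrophage markers, on each of the 12 arrays. Circles are arrays with their replicate number, lines are group means and bars the SD (n = 3), drawn down to 0 where the SD exceeds the mean. Untreated knockout-labelled replicate 3 and WT DOX replicate 2, with neutrophil sums of 5278 and 6899, are also the 2 highest arrays of Casp4 and Apaf1. The first of them also has the highest macrophage sum, 10807.

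Other cell types were followed in the same way. The 10 cardiomyocyte markers summed to between 167267 and 176467 in untreated WT and 163650 and 170448 in untreated knockout-labelled hearts. After DOX they summed to between 146376 and 170902 in WT and 154943 and 162696 in knockout-labelled hearts. Of the 10, 8 had a lower mean after DOX in WT and 6 in knockout-labelled hearts, where Ryr2 passed (-0.50, limma adjusted p = 0.042). Averaged over genotypes, 6 of the 10 had a lower mean after DOX and 4 a higher one. There 2 were lower by the test, Actc1 (-0.38, limma adjusted p = 0.025) and Ryr2 (-0.40, 0.012), against 9.15% of all probe sets. The 8 fibroblast markers summed to between 10158 and 12456 in untreated WT, 12276 and 17396 in untreated knockout-labelled, 9232 and 10501 in WT DOX, and 11751 and 11991 in knockout-labelled DOX hearts. Of these, 7 had a lower mean after DOX in WT and all 8 in knockout-labelled hearts, where Casp8 fell. Averaged over genotypes, the comparison in which Casp8, Casp6 and Casp1 passed, 7 of the 8 had a lower mean after DOX. There 4 were lower by the test and 6 had an unadjusted p under 0.05, against 9.15% and 23.1% of all probe sets. Lum passed in both genotypes (-1.53, limma adjusted p = 0.0044, and -0.995, limma adjusted p = 0.018) and Col1a1 in knockout-labelled hearts (-1.24, limma adjusted p = 0.033). All 8 had a higher mean in knockout-labelled than in WT hearts with and without DOX, opposite to Casp9 1437537_at, but single arrays overlapped for some, and 1 passed in each comparison, Col1a1 without treatment (1.13, limma adjusted p = 0.048) and Lum after DOX (1.17, limma adjusted p = 0.020). The 7 smooth muscle and pericyte markers summed to between 10725 and 12160 in untreated WT, 15840 and 21294 in untreated knockout-labelled, 11244 and 12516 in WT DOX, and 11148 and 12571 in knockout-labelled DOX hearts. Of the 7, 6 had a higher mean in untreated knockout-labelled than in untreated WT hearts. Only Acta2, smooth muscle actin, passed there (2.41, limma adjusted p = 0.014), against 1.81% of all probe sets. After DOX 6 had a lower mean in knockout-labelled hearts. Acta2 (-1.91, limma adjusted p = 0.025) and Cspg4 (-0.39, limma adjusted p = 0.038) passed there, against 2.20% of all probe sets. In WT hearts 5 had a lower mean after DOX, and 0 passed. Averaged over genotypes, 2 of the 7 were lower after DOX by the test, against 9.15% of all probe sets. Of the erythroid markers 3 of 5 were matched, with Hba-a1 near the lower end of the scale (mean 9.05), and they summed to between 212 and 1160 in untreated WT, 85.0 and 345 in untreated knockout-labelled, 35.6 and 56.3 in WT DOX, and 40.4 and 51.0 in knockout-labelled DOX hearts. Alas2, the first enzyme of heme synthesis in red cell precursors, fell after DOX in WT hearts (-3.21, limma adjusted p = 0.025). Endothelial sums lay between 2817 and 4238 and lymphocyte sums between 276 and 353 on all arrays. Of the 8 endothelial markers, 7 had a lower mean in knockout-labelled than in WT hearts without treatment. After DOX all 8 did, the direction of Casp9 1437537_at, and none passed in either comparison. Averaged over genotypes, 2 of the 8 were lower after DOX by the test, where 9.15% of all probe sets passed. Of the 9 lymphocyte markers, 7 had a lower mean after DOX in WT and 6 in knockout-labelled hearts, and 0 passed. The part of these cell types in the caspase values was not tested.

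The partners of the caspases were read from lists of their pathways, each gene by its brightest probe set. In death receptor signaling 10 of 11 genes had a probe set, of which 1 fell after DOX in WT and 1 was lower in untreated knockout-labelled hearts. Over all probe sets 3.06% and 1.81% passed in these comparisons, so nothing about the list was read from these counts. Tnfsf10, which encodes the death ligand TRAIL, read 158, 166 and 168 in untreated WT and 119, 96.0 and 112 in WT DOX hearts on 1459913_at, a log2 difference of -0.48 (limma adjusted p = 0.045) between groups that did not overlap. In knockout-labelled hearts it read 144, 150.0 and 109 without treatment and 102, 93.0 and 122 after DOX, a difference of -0.27 that did not pass (limma adjusted p = 0.24). Another probe set of nearly the same brightness, 1439680_at, had differences of -0.30 in WT (limma adjusted p = 0.080) and -0.40 in knockout-labelled hearts (limma adjusted p = 0.040), so the genotype in which Tnfsf10 passed depended on the probe set. The call of 1459913_at in WT held in 3 of 12 fits without 1 array (untreated knockout-labelled replicate 2 or 3, or knockout-labelled DOX replicate 3), with adjusted p-values between 0.057 and 0.14 in the other 9. In the averaged comparison, added later, Tnfsf10 was lower after DOX on each of its probe sets, where 9.15% of all probe sets passed. The differences were -0.37 on 1459913_at (limma adjusted p = 0.016), -0.35 on 1439680_at (0.0076) and -0.28 on the dim 1420412_at (0.030). That of 1459913_at held without each array in turn.

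Fadd, the adaptor that brings caspase-8 to death receptors, was lower in untreated knockout-labelled hearts. It read 234, 229 and 215 in untreated WT and 176, 182 and 167 in untreated knockout-labelled hearts on 1416888_at, a log2 difference of -0.32 (limma adjusted p = 0.040). After DOX the values were 243, 219 and 203 in WT and 223, 201 and 195 in knockout-labelled hearts, and the groups overlapped. The call held in 4 of 12 fits without 1 array (untreated knockout-labelled replicate 2, replicate 1 or 3 of WT DOX, or knockout-labelled DOX replicate 1), with a highest adjusted p of 0.14 without untreated WT replicate 2, and the second Fadd probe set, 1446499_at, had a difference of -0.01.

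In the PIDDosome list 5 of 6 genes had a probe set, and Cradd, the adaptor of caspase-2, passed in both comparisons that involve the untreated knockout-labelled arrays. It read 119.7, 120.2 and 109.9 in untreated WT, 69.2, 74.2 and 57.4 in untreated knockout-labelled, 119, 106 and 112 in WT DOX, and 108, 102 and 86.6 in knockout-labelled DOX hearts on 1427505_a_at. The untreated knockout-labelled arrays lay below all others. The genotype difference without treatment was -0.59 (limma adjusted p = 0.010), and the DOX difference in knockout-labelled hearts was 0.40 (limma adjusted p = 0.030). These comparisons share the same 3 arrays, and over all probe sets 1.81% and 2.20% passed in them. The interaction of 0.44 did not pass (limma adjusted p = 0.40), and Casp2 itself did not separate these groups. The genotype call was lost without untreated WT replicate 2 (adjusted p = 0.055). The DOX call was lost without untreated knockout-labelled replicate 1 (0.060) or 3 (0.062) or knockout-labelled DOX replicate 1 (0.12) or 2 (0.096).

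In the inflammasome list 9 of 12 genes had a probe set, of which 1 fell after DOX in WT, where 3.06% of all probe sets passed. In knockout-labelled hearts 0 passed, against 2.20% of all probe sets. There 1 had an unadjusted p under 0.05, as did 16.2% of all probe sets. Pycard, which encodes the adaptor ASC of caspase-1, read 382, 340.2 and 369 in untreated WT and 230.0, 272 and 241 in WT DOX hearts on 1417346_at, a log2 difference of -0.50 (limma adjusted p = 0.036). In knockout-labelled hearts it read 324, 267 and 319 without treatment and 188, 223 and 256 after DOX, a difference of -0.40 (limma adjusted p = 0.080) between groups that did not overlap. The average of both, -0.45 (limma adjusted p = 0.0071), held without each array in turn, while the call in WT was lost without any of the 6 arrays compared or without knockout-labelled DOX replicate 2, with a highest adjusted p of 0.12 without untreated WT replicate 3. The other Pycard probe sets, 1417347_at and 1446926_at, had means of 10.8 and 9.54 and gave no call, with DOX differences of -0.05 and -0.02 in WT and 0.04 and 0.06 in knockout-labelled hearts. Il18 and Il1b, which encode the cytokines that caspase-1 matures, and are named for this role, had DOX differences in WT of -0.19 (limma adjusted p = 0.19) and -0.17 (limma adjusted p = 0.39) and did not pass.

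**Figure D4:**
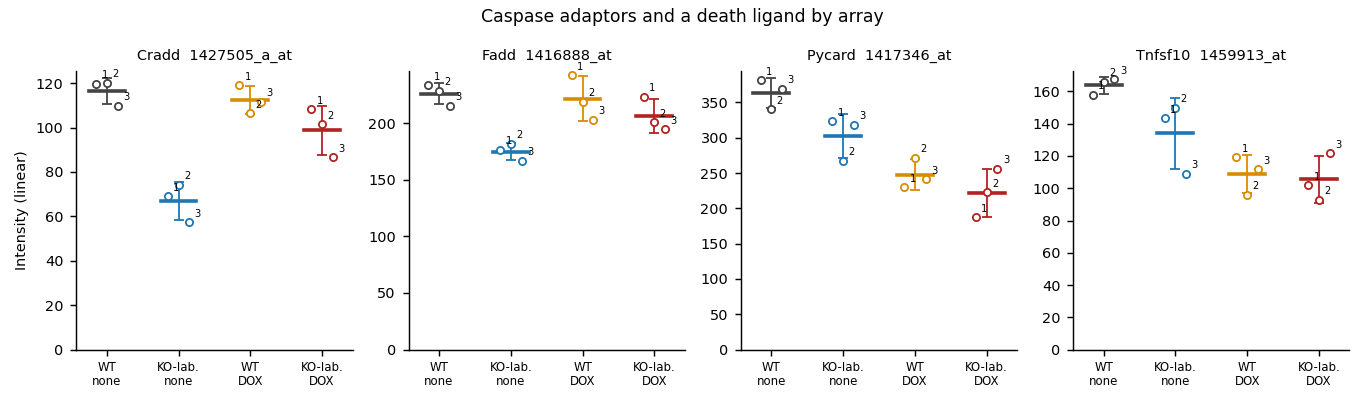
Linear intensity of the caspase adaptors Cradd, Fadd and Pycard and of the death ligand gene Tnfsf10 on each of the 12 arrays. Circles are arrays with their replicate number, lines are group means and bars the SD (n = 3). Cradd is lowest on the 3 untreated knockout-labelled arrays (57.4 to 74.2), and Pycard is lower after DOX in both genotypes.

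In the remaining lists 0 genes passed in the 4 comparisons. At an unadjusted p under 0.05 after DOX in WT hearts, 1 of the other caspases and caspase-8 partners was lower, 2 apoptosome and inhibitor genes were higher, 1 substrate was higher and 2 were lower, and 3 genes of endoplasmic reticulum stress were higher and 1 was lower. Since 18.8% of all probe sets had such a p in this comparison, nothing about these lists was read from the counts. Among the other caspases and caspase-8 partners (3 of 5 measured), Cflar, which encodes the caspase-8 inhibitor c-FLIP, had DOX differences of -0.20 (limma adjusted p = 0.25) and -0.15, and Casp14, a caspase of the epidermis, -0.05 and 0.14. Among the apoptosome and inhibitor genes (8 of 8), Xiap, which encodes an inhibitor of caspase-9, had a DOX difference of -0.26 in knockout-labelled hearts (limma adjusted p = 0.070). Birc6, a giant inhibitor of apoptosis, had a genotype difference of -0.25 after DOX (limma adjusted p = 0.084). Among the substrates (10 of 10), Lmna, which encodes the lamin A that caspase-6 cuts, had a DOX difference of 0.26 in WT (limma adjusted p = 0.11), and Parp1, a DNA repair enzyme cut by caspases, of -0.19 (limma adjusted p = 0.13).

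Among the genes of endoplasmic reticulum stress (12 of 12), none passed and Casp12 did not separate the groups. Herpud1, which serves the degradation of misfolded proteins, had DOX differences of 0.91 in WT (limma adjusted p = 0.064) and 1.03 in knockout-labelled hearts (limma adjusted p = 0.054), with no overlap of treated and untreated arrays in either genotype. Ddit3, which encodes the stress factor CHOP, had a genotype difference of 0.52 after DOX (limma adjusted p = 0.058). The list members with no probe set were not analysed here.

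The genes whose brightest probe set (mean at least 100) ran most like a called member over the 12 arrays were looked up among 7908 candidates, by Pearson r on the log2 scale and as a description only. For Casp8 they were Papss1 (r = 0.93), a sulfate donor synthase, Itga1 (0.93), a collagen-binding integrin subunit, and Myh9 (0.93), a nonmuscle myosin heavy chain. For Casp9 1437537_at they were Zc3h14 (0.96), an RNA-binding zinc finger protein, Tmem109 (0.96), a transmembrane protein, and Rab14 (0.95), a small GTPase of membrane traffic. The points share arrays and group structure, so that any gene lower on the same 6 arrays scores high.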

How the data were processed

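Hearts were measured on 12 Affymetrix arrays. The deposited linear intensities were summarised per probe set by the authors with Affymetrix Expression Console, per the labels, with its version and summary method not given in the sources used here. The array quartiles lay close together, as after scaling, so that a shift of all genes at once could not be seen. Probe sets were named through the platform's gene table (34945 with 1 gene, 932 with several, 9160 with none). limma 3.58.1 in R 4.3.3 (lmFit, contrasts, eBayes without trend) was run on log2(intensity + 32). The named pathway genes were all called ones and otherwise the 2 of smallest p per list. Il18, Il1b, marker genes and genes called in averaged comparisons were named outside this rule, after their values were seen. The members and lists were chosen with earlier results of these data known. The methods' t-test, other added values, normalizations, filters, fits and array subsets were alternatives. Averaged comparisons, permutation tests and the removal of 2 arrays were chosen after the results were seen. limma was checked on simulated data. Python 3.11.15 and pandas 2.3.3 were used. The table gives no detection calls, and the number of arrays limits the precision. No protein sequences were used here.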

Additional observations from a re-analysis of the deposited data

How the results depend on the processing

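Of 2796 re-fitted values of 119 single results, 2678 kept their side of the threshold, 106 lost a call, 12 gained one and 0 reversed; the cause was not tested. Member probe sets called for DOX in WT hearts went from 0 to 1 (Casp1) with an added value of 1, a trended robust variance, a filter at mean 32 or an adjusted p under 0.1, and to 2 under the methods' t-test unadjusted. For DOX in knockout-labelled hearts the count of 1 became 0 in a fit to the compared arrays alone and under the methods' t-test after adjustment, and 2 under that test unadjusted, with 0 to 2 when leaving out 1 array. For the genotype without treatment and after DOX the count of 1 (Casp9) became 0 with an added value of 64, a replicate block, the compared arrays alone, the adjusted methods' t-test, and without both arrays of highest neutrophil sums, with 0 to 1 when leaving out 1 array. After DOX it was 2 under the unadjusted t-test. In deviations from the group means, same-numbered arrays of different groups correlated between -0.25 and 0.15, and other-numbered ones between -0.29 and 0.28. Of the 12 arrays, 7 fitted best with their own number. Whether the numbers pair the samples was not settled, and the main fit did not pair them. With the replicate block the Casp9 adjusted p-values were 0.073 and 0.071, and Casp6 averaged over genotypes had 0.064. With quantile normalization Casp6 had 0.055. With the probe sets of a gene averaged, genes called were 1 (Casp1) rather than 0 for DOX in WT, and 0 rather than 1 for the genotype without treatment, after DOX and averaged. The Stub1 difference of 1.892 after DOX lost its call in the compared arrays alone (adjusted p = 0.052) and in the adjusted t-test (adjusted p = 0.24). Differences of dim probe sets are limited by signal near the array median.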

Other observations

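Further partners of the caspases passed in comparisons averaged over both genotypes or both treatments, which were added after the data were seen, and in none of the others. In these comparisons 9.15% of all probe sets passed for DOX and 5.28% for the genotype, so nothing about the lists was read from these calls. Averaged over genotypes, Birc2, which encodes the inhibitor of apoptosis cIAP1, was higher after DOX by 0.31 on the log2 scale (limma adjusted p = 0.038), and Xiap was lower by a log2 difference of -0.20 (limma adjusted p = 0.026). Herpud1 was higher by 0.97 (limma adjusted p = 0.0081) and Atf6, a sensor of endoplasmic reticulum stress, by 0.37 (limma adjusted p = 0.037). Bid, which caspase-8 cuts, was lower (-0.16, limma adjusted p = 0.031), as was Gas2, an actin-binding caspase substrate (-0.19, limma adjusted p = 0.040), and both are dim, with means of 28.6 and 21.6. Birc5, which encodes survivin, also passed, but its mean of 9.69 lies below the lower quartile of every array, so that no difference is given. For the genotype averaged over treatments, Ddit3 was higher on knockout-labelled arrays by 0.42 (limma adjusted p = 0.016), and Traf2, an adaptor of tumour necrosis factor receptors, by 0.15 (limma adjusted p = 0.042).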
